A study of Mus musculus with 12 samples.

Results

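The nuclear genes of the mitochondrial respiratory chain were followed in 12 cell populations sorted from the brain and blood of mice. A gene was taken when a probe set named it alone and its symbol began with Nduf, Sdha to Sdhd, Uqcr, Cox4 to Cox8 or Atp5, and the brightest probe set stood for each gene. This gave 89 of 19938 genes, of which 74 encode subunits. They were 34 of complex I, 4 of complex II, 8 of complex III, 11 of complex IV and 17 of complex V. Another 8 encode forms known from particular tissues (Cox4i2, Cox6a2, Cox6b2, Cox7a1, Cox7b2, Cox8b, Cox8c and Ndufa4l2), and 7 are the complex I assembly factors Ndufaf1 to Ndufaf7. Ndufa4, whose protein was first ascribed to complex I, was counted with complex IV. Cox7a2l was counted there by its symbol alone. Left out were 6 probe sets that name a gene of these families beside other symbols.

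Cells were sorted from C57BL/6 mice, 7 weeks old at implantation, and each population was hybridised to 1 Affymetrix Mouse Gene ST array. Tumor arrays came from animals carrying GL261, a mouse glioma line, for 2 weeks in the brain. They were microglia (tumor MG, CD11b+/CD45low), brain macrophages (tumor MP, CD11b+/CD45high), Gr1+ and Gr1- cells of tumor brain, Gr1+ and Gr1- cells of the blood, and blood macrophage populations labelled high and low. Normal MG, normal MP and normal blood macrophage high and low came from mice labelled as normal, although the implantation text stands on their records too. The labels define neither high nor low, and they do not say how many animals gave each sample. With 1 array per condition no difference could be tested, and each one below is the difference of 2 arrays.

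Complex I takes electrons from NADH and complex II takes them from succinate. Complex III passes them on to cytochrome c and complex IV to oxygen, while complexes I, III and IV pump protons that drive ATP synthesis by complex V. The subunits of complexes I, III, IV and V are encoded by nuclear and mitochondrial genes, so assembly needs both genomes. Myeloid cells are known to shift between respiration and glycolysis with their state.

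Many nuclear respiratory genes are known to carry binding sequences of NRF1, of ETS factors such as GABP, or of YY1 near the start of transcription. RefSeq windows of GRCm38.p6, from 250 bases before to 50 bases after a start, were found for 63 of the 74 subunit genes. The letters GCGCATGC (NRF1), CCGGAAG (ETS) and AAGATGGC (YY1) were searched on both strands, and matches on opposite strands may overlap. At least 1 of these motifs stood in the windows of 31 of the 63 genes (49.2%), against 14.9% of the 27025 genes in the table. By motif the shares were 15.9% against 3.05% for NRF1, 27% against 9.93% for ETS and 15.9% against 3.19% for YY1. YY1 letters were present in 22.6% of 31 complex I genes and in 0 of the 9 genes of complex IV with a window. None of the 4 tissue-restricted forms with a window held any of the 3 motifs. These are letter matches, not sites shown to be bound.

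These windows are printed with the motif letters in capitals, because these genes carry the differences described further on. Cox6a1 (chr5:115348909-115349208, minus strand) holds overlapping NRF1 matches of both strands at -162 and -160 and an ETS match at -16, counted from the start. Ndufa3 (chr7:3617123-3617422, plus strand) holds a YY1 match at 22, inside the transcript. Ndufa4 (chr6:11907401-11907700, minus strand) and its paralogue AA467197 (chr2:122637637-122637936, plus strand) hold none of the 3 motifs.
Cox6a1: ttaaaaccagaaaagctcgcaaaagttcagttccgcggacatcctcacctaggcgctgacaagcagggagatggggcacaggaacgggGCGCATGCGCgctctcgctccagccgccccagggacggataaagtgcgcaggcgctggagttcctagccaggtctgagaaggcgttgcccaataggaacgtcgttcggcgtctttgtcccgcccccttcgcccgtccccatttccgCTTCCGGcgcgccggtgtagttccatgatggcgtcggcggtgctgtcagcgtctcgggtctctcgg
Ndufa3: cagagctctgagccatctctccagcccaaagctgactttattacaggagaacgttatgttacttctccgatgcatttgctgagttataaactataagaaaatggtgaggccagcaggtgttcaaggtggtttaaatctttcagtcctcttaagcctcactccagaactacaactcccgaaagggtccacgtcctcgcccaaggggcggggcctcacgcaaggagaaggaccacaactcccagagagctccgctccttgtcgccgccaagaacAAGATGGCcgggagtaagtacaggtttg
Ndufa4: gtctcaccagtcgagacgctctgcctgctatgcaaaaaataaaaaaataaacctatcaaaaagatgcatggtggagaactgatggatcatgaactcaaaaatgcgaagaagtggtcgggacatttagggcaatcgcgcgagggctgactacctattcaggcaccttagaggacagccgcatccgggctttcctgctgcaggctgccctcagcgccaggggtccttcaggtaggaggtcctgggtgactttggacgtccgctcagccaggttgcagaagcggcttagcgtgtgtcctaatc
AA467197: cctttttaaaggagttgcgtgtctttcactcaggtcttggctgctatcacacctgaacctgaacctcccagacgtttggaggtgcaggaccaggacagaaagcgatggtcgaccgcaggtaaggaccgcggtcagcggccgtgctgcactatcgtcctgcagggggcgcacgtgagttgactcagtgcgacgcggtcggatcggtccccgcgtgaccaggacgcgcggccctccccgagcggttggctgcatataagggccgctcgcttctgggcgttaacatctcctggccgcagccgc

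Before any comparison, the arrays themselves differed. The background level of an array was set at the 95th percentile of its 1027 olfactory receptor genes, which sorted myeloid cells should not express, and it ran from 8.93 to 10.09 on the log2 scale. Normal blood macrophage high stood apart, with the level of 10.09, 11.2% of genes above it and correlations over genes of 0.47 to 0.73 with the other arrays. Values are therefore also given over the other 11 arrays. Some arrays carried markers that their labels do not name. All 9 measured microglia markers were above background on tumor blood Gr1- (median 11.45). All 10 NK cell markers were above it on tumor blood macrophage low and 9 of 10 on normal blood macrophage high. Of 11 neutrophil markers, 11 were above it on normal MP, and 8 were on each of tumor blood Gr1+, tumor blood macrophage high and normal blood macrophage low. Of 7 B cell markers, 7 were above it on tumor and normal blood macrophage low. On tumor and normal blood macrophage high and on tumor blood Gr1-, 6 were. Of 5 astrocyte markers, 4 were above it on normal MG and normal MP. On tumor MG, tumor MP, tumor brain Gr1- and tumor blood Gr1-, 3 were. Of 5 neuron markers, 3 were above it on normal MP and 2 on normal MG. Of 5 dividing cell markers, 3 were above it on normal MP, tumor MP, tumor brain Gr1- and tumor blood Gr1-, and 2 on tumor MG. The comparisons of these arrays are given as labelled, and since each array is the single sample of its condition, none could be repeated without it.

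Among the 74 subunit genes, 17 were above background on all 12 arrays, 50 on 1 to 11 arrays and 7 on none. Without normal blood macrophage high, 27 were above it on every remaining array. The 17 comprised 10 of the 17 complex V genes, 3 of complex IV, 2 of complex I and 1 each of complexes II and III. Complex V included the catalytic core genes Atp5a1 and Atp5b, the central stalk gene Atp5c1 and the 3 genes of the same c-ring protein, Atp5g1, Atp5g2 and Atp5g3. Complex IV contributed Cox5b, Cox7a2l and Cox8a, complex I the accessory subunits Ndufb7 and Ndufb11, complex II the membrane anchor Sdhc and complex III Uqcrb. Among the 17, the probe sets of Ndufb11, Atp5h, Atp5l and Atp5md may read another place in the genome, as set out under the processing. The 7 genes below background throughout were Ndufa2, Ndufb2, Ndufb3, Ndufb8, Ndufb10, Ndufs5 and Uqcr11. A probe set below background may report a poor probe as well as a rare transcript, so no absence is implied. The share of all genes above background on every array was not computed. By array, the number of subunits above background ran from 18 on normal blood macrophage high to 63 on tumor brain Gr1+, where 11.2% and 35.2% of all genes were. It was 34 and 55 in MG and MP of normal brain and 35 and 45 in those of tumor brain. Of all genes, 27.1% and 36.3% were above it in MG and MP of normal brain and 26.3% and 32.0% in those of tumor brain. The share of all genes thus rose from MG to MP too.

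A smaller share of subunit genes than of genes at large varied 2-fold between populations. Over 11 arrays the median range from lowest to highest array was 0.91 on the log2 scale for the 74 genes and 0.98 for all genes. A range of at least 2-fold was reached by 26 of the 74 (35.1%) and by 48.6% of all genes. Among genes whose mean lay above the mean background level, the shares were 13 of 48 (27.1%) and 51.8% of 6326 genes. With all 12 arrays they were 63.5% of the 74 and 86.2% of all genes. The complexes differed in how many members reached 2-fold over 11 arrays. They were 6 of 8 in complex III, 13 of 34 in complex I, 4 of 11 in complex IV, 3 of 17 in complex V and 0 of 4 in complex II.

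**Figure D1:**
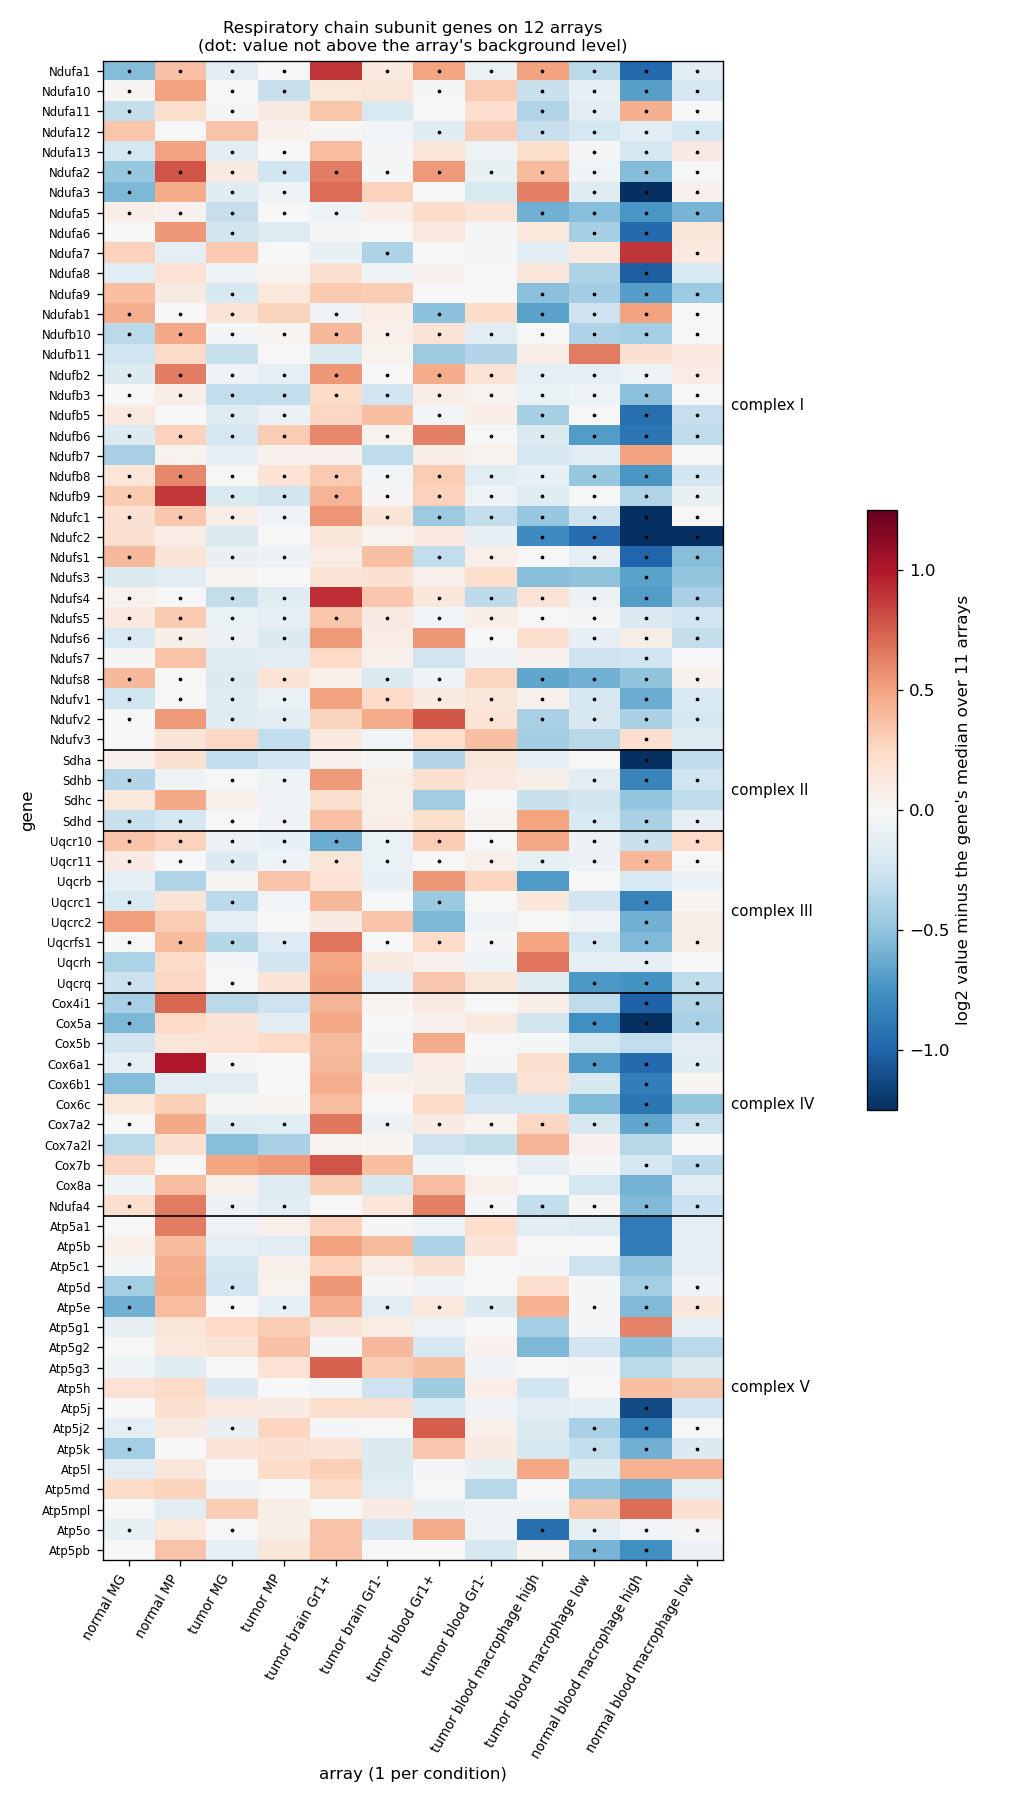
Log2 value of each of the 74 subunit genes (rows, by complex) on each of the 12 arrays (columns), as the difference from the gene's own median over the 11 arrays other than normal blood macrophage high. The colour scale is clipped at its ends, dots mark values not above the array's background level, and the columns of tumor brain Gr1+ and normal MP are mostly red while that of normal blood macrophage high is mostly blue.

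Tumor brain Gr1+ cells and normal MP gave the highest values most often. Among 11 arrays, 25 of the 74 genes peaked on tumor brain Gr1+, 17 on normal MP and 11 on tumor blood Gr1+, where 5.41%, 7.19% and 4.51% of all genes peaked. Among genes with a mean above the mean background level, 10.8%, 6.42% and 6.24% peaked on these arrays. Scaling changed the order of the subunit counts. After centring on cytosolic ribosomal protein genes only 2 subunits peaked on normal MP and 4 on tumor blood Gr1+. The shares of all genes after that centring were not computed. The median deviation from a gene's own 11-array median was 0.30 on tumor brain Gr1+, and by complex it ran from 0.27 in complex I to 0.41 in complex IV. On normal MP it was 0.23, and by complex it ran from 0.06 in complex II to 0.30 in complex IV. The lowest values over 11 arrays fell most often on normal MG, tumor blood macrophage high and tumor blood macrophage low, with 16 genes each. The share of all genes lowest on these arrays was not computed, so these counts are not read as particular to the subunits. Less RNA per cell and fewer cells of one type cannot be told apart in such bulk samples.

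Normal blood macrophage high held the lowest value of 47 of the 74 genes when all 12 arrays were used, against 20.9% of all genes. The subunits were 0.55 below their own 11-array medians there, while the median of all genes was 0.57 above. Genes with a mean above the mean background level behaved as the subunits did, at -0.63. The tissue-restricted forms went the other way, and all 8 had their highest value on this array. So did 87.4% of the olfactory receptor genes and 50.5% of all genes, so the peak of these 8 forms was shared with most genes that such cells should not express.

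The paired forms of complex IV subunits were followed gene by gene. Cox4i1 encodes the form of subunit 4 found in most tissues, and Cox4i2 the form known from lung and from low oxygen. Cox4i1 read 9.33 and 10.46 in MG and MP of normal brain, 9.40 and 9.48 in MG and MP of tumor brain, 10.17 and 9.77 in Gr1+ and Gr1- cells of tumor brain, 9.85 and 9.74 in Gr1+ and Gr1- cells of tumor blood, 9.82 and 9.42 in tumor blood macrophage high and low, and 8.73 and 9.36 in normal blood macrophage high and low. It was above background on 9 arrays, and its value was highest on normal MP and lowest on normal blood macrophage high. Cox4i2 read 10.34 and 9.94 in MG and MP of normal brain, 10.43 and 10.46 in MG and MP of tumor brain, 10.46 and 10.29 in Gr1+ and Gr1- cells of tumor brain, 10.58 and 10.08 in Gr1+ and Gr1- cells of tumor blood, 10.48 and 10.62 in tumor blood macrophage high and low, and 11.09 and 10.40 in normal blood macrophage high and low. Although Cox4i2 was above background on all 12 arrays, its lowest array was normal MP and its highest normal blood macrophage high, the reverse of Cox4i1.

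Cox6a2 and Cox8c, known from muscle and testis, were also above background on all 12 arrays, with ranges over 11 arrays of 0.77 and 0.59. A value above the olfactory receptor level does not by itself show expression. Cox6b2 and Cox7b2, known from testis, and Ndufa4l2, known as a hypoxia-induced relative of Ndufa4, were above it on none. Ndufa4l2 read 8.06 and 7.63 in MG and MP of normal brain, 8.25 and 8.66 in MG and MP of tumor brain, 7.96 and 7.47 in Gr1+ and Gr1- cells of tumor brain, 7.36 and 8.10 in Gr1+ and Gr1- cells of tumor blood, 7.30 and 8.44 in tumor blood macrophage high and low, and 9.66 and 8.75 in normal blood macrophage high and low. Its range of 2.36 lay below background on every array and carries little information. The muscle forms Cox7a1 and Cox8b were above background on 4 arrays each. Of the widely expressed partners, Cox6b1 was above it on 11 arrays, Cox7b on 10, Cox8a on 12, Cox6a1 on 7, Ndufa4 on 4 and Cox7a2 on 2.

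**Figure D2:**
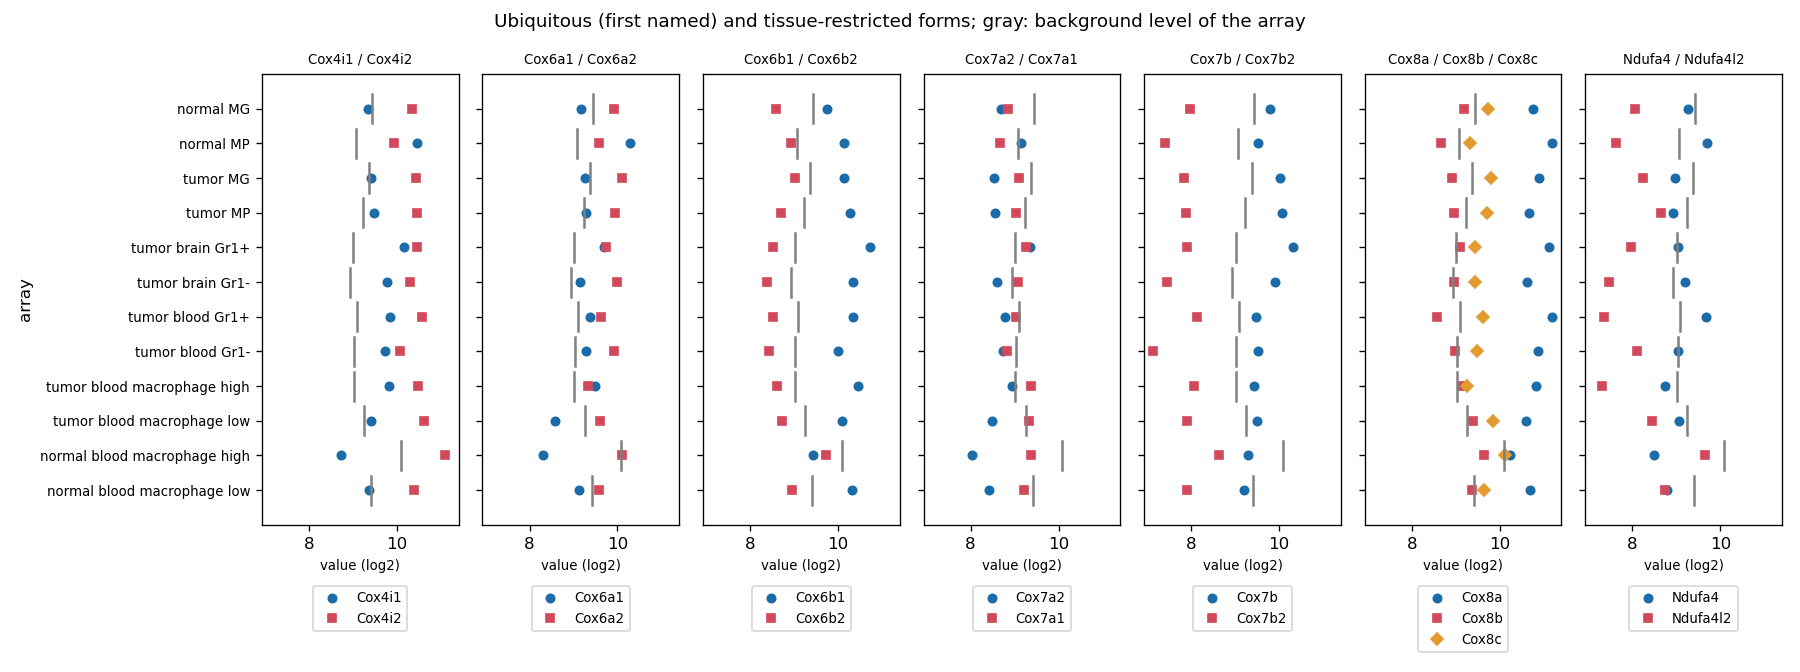
Log2 value (horizontal axis) of widely expressed and tissue-restricted forms of 7 subunits on each of 12 arrays (vertical axis), with the background level of each array as a gray bar. All 8 tissue-restricted forms have their highest value on normal blood macrophage high, and levels of different genes are not comparable because each has its own probes.

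Between normal populations, subunit genes had higher values in MP than in MG as deposited. The median log2 difference of the 74 genes, normal MP minus normal MG, was 0.33, and 57 of 74 were above 0, against a median of -0.22 and 30.6% above 0 for all genes. By complex the medians were 0.44 for IV, 0.30 for I, 0.24 for V, 0.22 for II and 0.14 for III. The direction depended on the processing. Centring on all genes, quantile normalization and cyclic loess gave 0.41 to 0.46, while centring on cytosolic ribosomal protein genes gave -0.37, those 61 genes having a median of 0.53 themselves. With values below background raised to it the median was -0.04. At least 2-fold higher were 4 of 74 subunits, where 4.35% of all genes were, and at least 2-fold lower were 0, where 3.11% of all genes were.

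Those 4 genes were Ndufa2, which was below background on both arrays, Cox4i1, Cox6a1 and Ndufa3. Cox6a1, another nuclear subunit of cytochrome c oxidase, read 9.17 and 10.28 in MG and MP of normal brain, 9.26 and 9.28 in MG and MP of tumor brain, 9.69 and 9.15 in Gr1+ and Gr1- cells of tumor brain, 9.37 and 9.29 in Gr1+ and Gr1- cells of tumor blood, 9.49 and 8.58 in tumor blood macrophage high and low, and 8.30 and 9.13 in normal blood macrophage high and low. Normal MP held its highest value by far, and no other array came within 0.5 of it. Ndufa3, a small accessory subunit of complex I, read 8.67 and 9.69 in MG and MP of normal brain, 9.08 and 9.17 in MG and MP of tumor brain, 9.92 and 9.52 in Gr1+ and Gr1- cells of tumor brain, 9.23 and 9.04 in Gr1+ and Gr1- cells of tumor blood, 9.86 and 9.07 in tumor blood macrophage high and low, and 7.74 and 9.28 in normal blood macrophage high and low. Its highest value lay on tumor brain Gr1+, followed by tumor blood macrophage high and normal MP. The differences between normal MP and normal MG were 1.12 for Cox4i1, 1.11 for Cox6a1 and 1.02 for Ndufa3, and these 3 stayed above 0 under all 5 scalings, down to 0.42, 0.41 and 0.32. Each was below background on normal MG. With that side raised to background, normal MP was at least 2.03-fold higher for Cox4i1, 1.80-fold for Cox6a1 and 1.19-fold for Ndufa3. Neutrophil markers moved with this comparison, since 11 of 11 were above background on normal MP (median 11.76) and 0 on normal MG (median 7.46). Monocyte markers did too, with 7 of 8 above it on normal MP and 0 on normal MG. Of 5 dividing cell markers, 3 were above it on normal MP and 0 on normal MG. The part of these markers in the difference was not tested.

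Subunit genes of tumor MP had lower values than those of normal MP. The median difference was -0.24 and 53 of 74 genes were below 0, while the median of all genes was 0.12, with 61.4% of them above 0. The subunit median stayed below 0 under all 5 scalings, from -0.30 to -0.05, and turned to 0.08 when values below background were raised to it. Complex IV had the lowest median, at -0.54, and 8 of its 11 genes were below 0. The medians of the other complexes ran from -0.25 to -0.09, and that of complex V turned to 0.11 after centring on cytosolic ribosomal protein genes. At least 2-fold lower were 2 of 74, against 3.58% of all genes, and at least 2-fold higher were 0, against 1.65%. The 2 were Ndufa2, below background on both arrays, and Ndufb9, an accessory subunit of complex I. Ndufb9 read 8.59 and 9.15 in MG and MP of normal brain, 8.07 and 8.03 in MG and MP of tumor brain, 8.69 and 8.28 in Gr1+ and Gr1- cells of tumor brain, 8.55 and 8.20 in Gr1+ and Gr1- cells of tumor blood, 8.11 and 8.26 in tumor blood macrophage high and low, and 7.88 and 8.18 in normal blood macrophage high and low. It was above background on normal MP alone, and its difference of -1.11 leaves no fold when tumor MP is raised to the background level there.

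Just short of 2-fold were Cox6a1 at -0.9997 and Cox4i1 at -0.98, both above background on both arrays. Ndufa10, an accessory subunit of complex I, followed at -0.79 and Ndufa4 at -0.77, both below background in tumor MP, and Ndufa6 at -0.70. Genes named at 1.5-fold, here and below, were chosen after their values were seen. In all 11 subunits were at least 1.5-fold lower (14.9% of 74, against 9.15% of all genes) and 1 was at least 1.5-fold higher (1.35%, against 8.09% of all genes). That gene was Uqcrb, a small subunit of complex III, at 0.73, read from the brightest of its 3 probe sets. Neutrophil markers above background numbered 11 on normal MP and 1 on tumor MP, and their part was not tested. Because this comparison and the last share the normal MP array, a high value on that array enters both.

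Tumor MG and normal MG differed little. The median difference was 0.01 with 38 of 74 genes above 0, against -0.09 and 39.2% for all genes. The subunit median turned to -0.49 after centring on cytosolic ribosomal protein genes and to -0.06 with values below background raised to it. None of the 74 reached 2-fold either way, where 2.44% of all genes were higher and 3.61% lower. The widest differences were 0.72 for Cox5a, a subunit of cytochrome c oxidase, and -0.63 for Uqcrc2, a core protein of complex III. Cox5a was below background on normal MG, while Uqcrc2 was above it on both arrays. Complex III had a median of -0.21, which stayed below 0 under all 5 scalings, and the medians of complexes II, IV and V lay between 0.09 and 0.11 but turned negative after centring on cytosolic ribosomal protein genes. Monocyte markers above background numbered 0 of 8 on normal MG (median 7.00) and 5 on tumor MG (median 10.03), and microglia markers had medians of 12.88 and 11.48.

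Tumor MP and tumor MG were close to each other, with medians by complex from -0.05 to 0.14. The median difference of the 74 genes, tumor MP minus tumor MG, was 0.07, or -0.12 with values below background raised to it. The subunit differences ran from -0.57 for Ndufv3 to 0.53 for Ndufb6, which was below background on both arrays. None reached 2-fold, where 0.186% of all genes were higher and 0.155% lower. The SD over subunit genes was 0.19, against 0.35 over olfactory receptor genes.

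**Figure D3:**
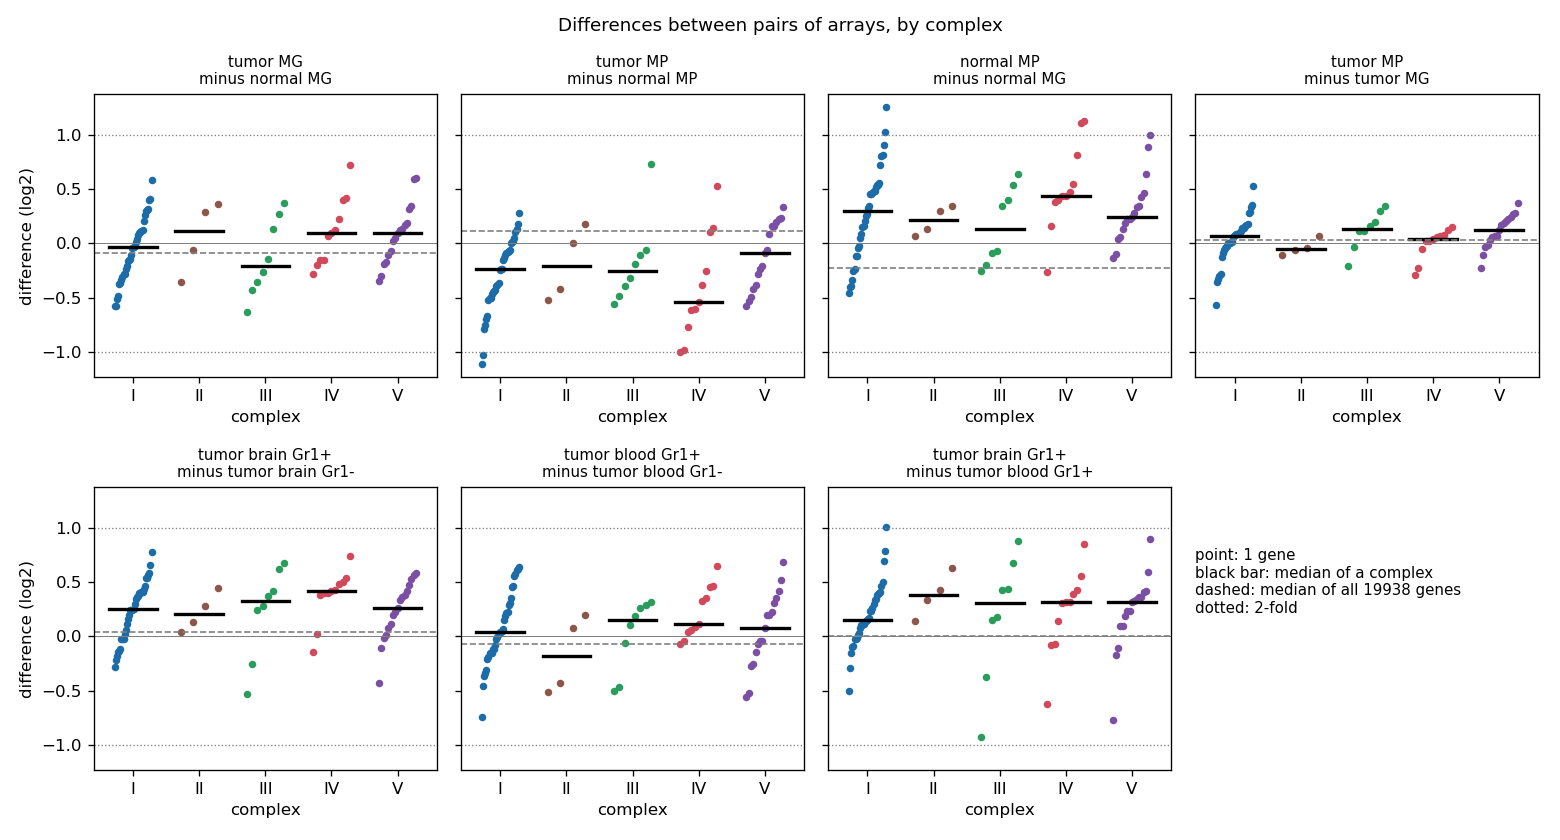
Difference on the log2 scale (vertical axis) of each subunit gene between pairs of arrays, by complex (horizontal axis), with the median of each complex as a black bar, the median of all 19938 genes dashed and 2-fold dotted. In normal MP minus normal MG and tumor brain Gr1+ minus Gr1- the black bars of all 5 complexes lie above the dashed line, and in tumor MP minus normal MP all 5 lie below it.

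Within the tumor, Gr1+ cells had higher values than Gr1- cells in every complex. The median difference of the 74 genes was 0.31 and 59 were above 0, against 0.04 and 55% for all genes. The medians were 0.42 for complex IV, 0.32 for III, 0.26 for V, 0.25 for I and 0.21 for II, and all 5 stayed above 0 under all 5 scalings. The median of the 74 ran from 0.19, with values below background raised to it, to 0.36. No single gene reached 2-fold, where 2.88% of all genes were higher and 5.12% lower, so the shift was broad and small. At least 1.5-fold higher were 6 subunits, a share of 8.11% that was near the 7.53% of all genes. They were Ndufa1 (0.77), Cox7a2 (0.74), the Rieske iron-sulfur protein gene Uqcrfs1 (0.67), Ndufa2 (0.66), Uqcrq (0.62) and Atp5e (0.59). Of these, Ndufa2 was below background on both arrays and Uqcrq was above it on both, while the other 4 were above it in Gr1+ cells alone.

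Ndufa1, a small accessory subunit of complex I, read 7.70 and 8.61 in MG and MP of normal brain, 8.10 and 8.24 in MG and MP of tumor brain, 9.14 and 8.37 in Gr1+ and Gr1- cells of tumor brain, 8.73 and 8.16 in Gr1+ and Gr1- cells of tumor blood, 8.75 and 7.90 in tumor blood macrophage high and low, and 7.27 and 8.11 in normal blood macrophage high and low. It was above background on tumor brain Gr1+ alone. The cytochrome c oxidase subunit Cox7b read 9.79 and 9.53 in MG and MP of normal brain, 10.02 and 10.06 in MG and MP of tumor brain, 10.32 and 9.90 in Gr1+ and Gr1- cells of tumor brain, 9.47 and 9.52 in Gr1+ and Gr1- cells of tumor blood, 9.42 and 9.50 in tumor blood macrophage high and low, and 9.30 and 9.20 in normal blood macrophage high and low, with its highest value also on tumor brain Gr1+ and its lowest on normal blood macrophage low. Cox7b was read from the brightest of its 2 probe sets, which may read another place in the genome. Against the higher values in Gr1+ than in Gr1- cells, Uqcr10 of complex III, below background on both arrays, was at -0.53. Atp5g2 was at -0.43 and Ndufa4 at -0.14. The 7 complex I assembly factors had a median of -0.29, but 5 of them (Ndufaf1, Ndufaf2, Ndufaf4, Ndufaf5 and Ndufaf6) were below background on all 12 arrays. Ndufaf3, the one above it on both arrays compared, was at -0.06. The lowest was Ndufaf7, an arginine methyltransferase needed to assemble complex I, at -1.42. Ndufaf7 read 9.21 and 8.94 in MG and MP of normal brain, 8.40 and 8.44 in MG and MP of tumor brain, 7.90 and 9.31 in Gr1+ and Gr1- cells of tumor brain, 8.15 and 8.46 in Gr1+ and Gr1- cells of tumor blood, 9.26 and 8.11 in tumor blood macrophage high and low, and 7.96 and 8.35 in normal blood macrophage high and low. It was above background on tumor brain Gr1- and tumor blood macrophage high alone, and the bound for Gr1- over Gr1+ cells is at least 1.23-fold. Microglia markers differed too, with 9 of 9 above background on tumor brain Gr1- (median 11.76) and 4 on Gr1+ (median 8.26). Monocyte markers went the other way, with 8 of 8 above it on Gr1+ and 4 on Gr1-, and 5 of 10 NK cell markers were above it on Gr1-. Of 5 dividing cell markers, 0 were above it on Gr1+ and 3 on Gr1-. The part of these markers was not tested.

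Gr1+ cells of the tumor also exceeded Gr1+ cells of the blood. The median difference was 0.24 with 58 of 74 above 0, against 0.01 and 50.8% for all genes, and it ran from 0.12 to 0.34 over all settings. The medians were 0.38 for complex II, 0.32 for V, 0.31 for IV, 0.30 for III and 0.15 for I. At least 2-fold higher was 1 gene, Ndufc1 of complex I, where 1.02% of all genes were, and 0 were lower, where 2.97% were. Ndufc1 read 8.65 and 8.80 in MG and MP of normal brain, 8.54 and 8.42 in MG and MP of tumor brain, 9.01 and 8.62 in Gr1+ and Gr1- cells of tumor brain, 8.005 and 8.16 in Gr1+ and Gr1- cells of tumor blood, 7.99 and 8.20 in tumor blood macrophage high and low, and 7.20 and 8.46 in normal blood macrophage high and low. It was above background on tumor brain Gr1+ alone, and its difference of 1.01 leaves no fold once blood Gr1+ cells are raised to background. Ndufc1 was read from the brightest of its 2 probe sets, which may read another place in the genome. With the mean of probe sets, 0 subunits were at least 2-fold higher.

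The catalytic subunit gene Atp5b was above background on all 12 arrays and read 11.50 and 11.83 in MG and MP of normal brain, 11.32 and 11.29 in MG and MP of tumor brain, 11.94 and 11.83 in Gr1+ and Gr1- cells of tumor brain, 11.04 and 11.60 in Gr1+ and Gr1- cells of tumor blood, 11.43 and 11.43 in tumor blood macrophage high and low, and 10.57 and 11.31 in normal blood macrophage high and low. It was highest on tumor brain Gr1+, and among 11 arrays lowest on tumor blood Gr1+, a difference of 0.89. The complex III core protein genes Uqcrc1 and Uqcrc2 differed by 0.88 and 0.67 and Cox7b by 0.85, with Uqcrc1 below background in blood Gr1+ cells. In the other direction were Uqcr10 at -0.93, below background on both arrays, Atp5j2 at -0.77 and Ndufa4 at -0.63. Neutrophil markers above background numbered 8 of 11 on tumor blood Gr1+ and 1 on tumor brain Gr1+, and this was not tested as a part of the difference.

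In blood, Gr1+ and Gr1- cells of tumor-bearing mice differed less, with a median of 0.07 and 44 of 74 genes above 0, against -0.07 and 42.3% for all genes. Centring on cytosolic ribosomal protein genes turned the subunit median to -0.12. None of the 74 reached 2-fold, where 3.2% of all genes were higher and 4.31% lower. The widest differences were 0.69 for Atp5j2 and -0.74 for Ndufab1, the mitochondrial acyl carrier protein, which was below background in Gr1+ cells. This comparison and the last share the tumor blood Gr1+ array. Tumor blood Gr1- carried the microglia markers described above and 6 of 7 B cell markers, and their part was not tested.

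Blood macrophage arrays were compared as labelled. Between tumor and normal blood macrophage low the median was -0.08 and 29 of 74 genes were above 0, close to -0.07 and 42.1% for all genes, and quantile normalization turned it to 0.03. None reached 2-fold, where 3.29% of all genes were higher and 6.06% lower. Between tumor blood macrophage high and low the median was 0.14 and 44 of 74 genes were above 0, against -0.21 and 32.2% for all genes. It ran from 0.14 to 0.36 over the 5 scalings and turned to -0.17 with values below background raised to it. Complex III had a median of 0.47 and complex IV of 0.37, both above 0 under all 5 scalings, while complex I was at -0.01 and turned positive under the other 4. No subunit reached 2-fold, where 6.72% of all genes were higher and 5.17% lower. In both of these comparisons one array carried NK cell markers and the other neutrophil markers. B cell markers stood on all of these arrays, with medians of 11.97 on tumor low, 10.67 on normal low and 10.16 on tumor high. The part of these markers was not tested.

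Between tumor and normal blood macrophage high, 10 subunits were at least 2-fold higher and 3 lower, where 17.7% and 32.9% of all genes were. The median of 0.56 turned to -0.84 with values below background raised to it. The largest difference was 2.12 for Ndufa3, which was below background on the normal array. Of the 10 higher genes only Cox6b1 and Sdha, the flavoprotein of complex II, kept a bound, at 1.29-fold each, after the normal array was raised to its background. The 3 lower genes were Atp5g1 (-1.05), Ndufa7 (-1.02) and Ndufab1 (-1.17), which was below background on both. These 2 arrays also split the olfactory receptor genes, of which 58.2% differed by 2-fold or more, whereas the share was 1.17% to 6.33% in the other comparisons. The tumor array carried neutrophil markers and the normal array NK cell markers. Both carried B cell markers, with medians of 10.16 on the tumor and 11.62 on the normal array. The part of these markers was not tested.

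**Figure D4:**
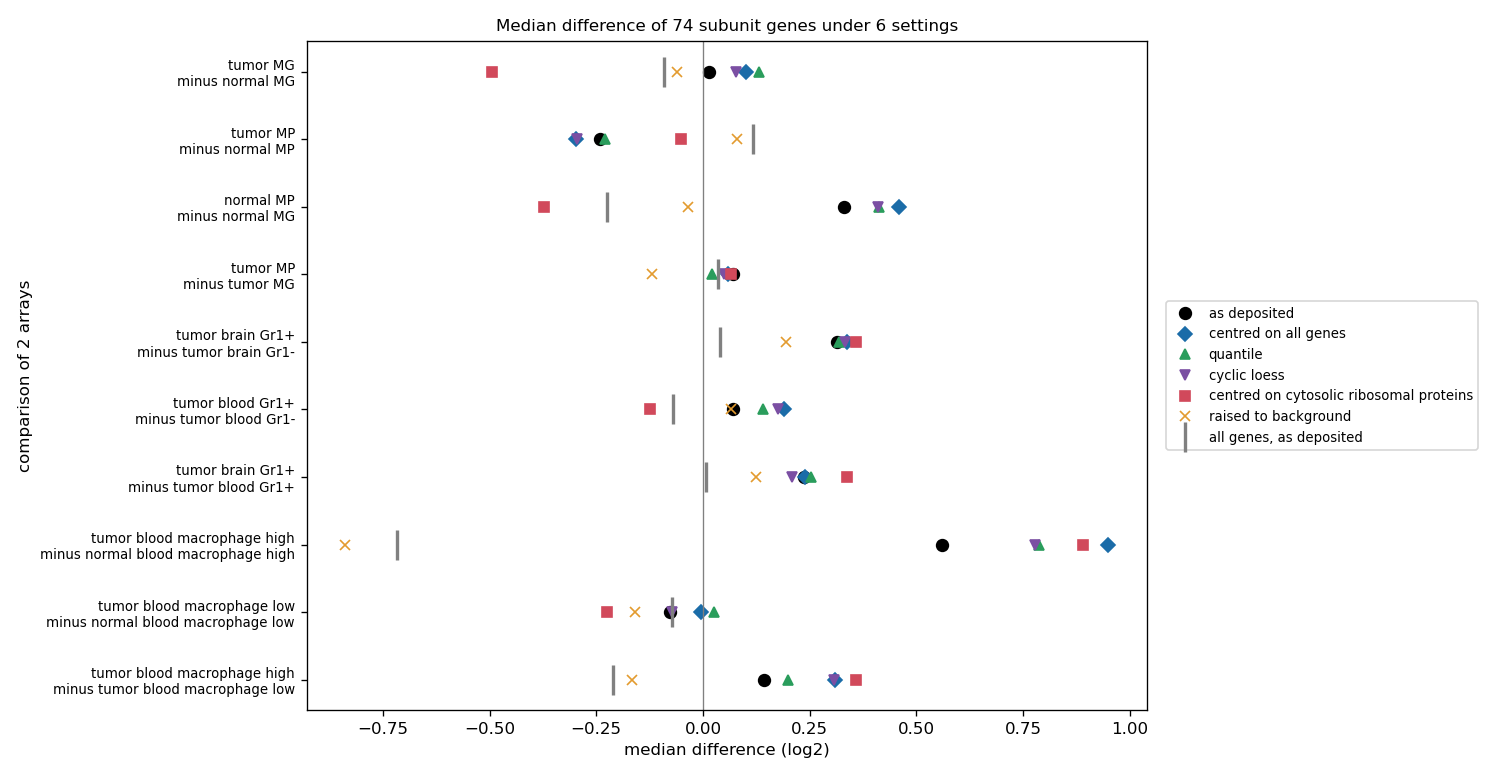
Median log2 difference of the 74 subunit genes (horizontal axis) in 10 comparisons (vertical axis) as deposited, under 4 other scalings and with values below background raised to it, with the median of all genes as deposited as a gray bar. All 6 settings lie above 0 in tumor brain Gr1+ minus Gr1- and in tumor brain Gr1+ minus tumor blood Gr1+, and in the other 8 comparisons they fall on both sides of 0.

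Among the chain's genes in mitochondrial DNA, 2 had a probe set of their own, named COX2 and ND3 in the annotation. Here COX2 is subunit 2 of cytochrome c oxidase, not cyclooxygenase. COX2 read 13.58 and 12.95 in MG and MP of normal brain, 12.99 and 13.15 in MG and MP of tumor brain, 12.41 and 12.87 in Gr1+ and Gr1- cells of tumor brain, 12.93 and 13.20 in Gr1+ and Gr1- cells of tumor blood, 12.14 and 12.88 in tumor blood macrophage high and low, and 12.89 and 12.60 in normal blood macrophage high and low. ND3 read 13.19 and 12.72 in MG and MP of normal brain, 12.60 and 12.72 in MG and MP of tumor brain, 11.80 and 12.48 in Gr1+ and Gr1- cells of tumor brain, 12.02 and 12.76 in Gr1+ and Gr1- cells of tumor blood, 11.24 and 12.40 in tumor blood macrophage high and low, and 12.59 and 11.85 in normal blood macrophage high and low. Both were above background on all 12 arrays, highest on normal MG and lowest on tumor blood macrophage high. In tumor MG against normal MG they differed by -0.59 each, and in normal MP against normal MG by -0.63 and -0.47. In tumor brain Gr1+ against Gr1- cells they were at -0.46 and -0.68, where 59 of the 74 nuclear subunits were above 0. These 6 differences stayed below 0 under all 5 scalings. Across tumor MP and normal MP they were 0.20 for COX2 and -0.0024 for ND3, whose sign turned after centring on cytosolic ribosomal protein genes.

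Cycs encodes cytochrome c, which carries electrons between complexes III and IV. Cycs read 9.66 and 10.08 in MG and MP of normal brain, 10.27 and 10.23 in MG and MP of tumor brain, 11.09 and 9.95 in Gr1+ and Gr1- cells of tumor brain, 10.79 and 10.03 in Gr1+ and Gr1- cells of tumor blood, 9.82 and 9.50 in tumor blood macrophage high and low, and 9.25 and 10.04 in normal blood macrophage high and low. Its value was 1.14 higher in tumor brain Gr1+ than in Gr1- cells, at least 2-fold under all 5 scalings, and both arrays were above background. Cyc1, the cytochrome c1 of complex III that the symbol rule does not take in, ranged from 8.73 to 10.23 and differed by under 2-fold in each of the 10 comparisons. Its widest difference was 0.79, between tumor and normal blood macrophage high. Atpif1, an inhibitor of ATP synthase, ranged from 9.40 on tumor blood macrophage low to 11.24 on normal MP.

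A wide difference outside the symbol rule was that of AA467197, also called Nmes1, a paralogue of Ndufa4 that is known to be induced in inflammatory macrophages. It read 6.61 and 8.36 in MG and MP of normal brain, 10.27 and 10.20 in MG and MP of tumor brain, 11.64 and 9.87 in Gr1+ and Gr1- cells of tumor brain, 11.48 and 9.33 in Gr1+ and Gr1- cells of tumor blood, 8.51 and 6.08 in tumor blood macrophage high and low, and 7.97 and 8.12 in normal blood macrophage high and low. It was above background on 6 arrays, namely tumor MG, tumor MP and the Gr1+ and Gr1- arrays of tumor brain and tumor blood, and on none of the normal arrays. Ndufa4 read 9.26 and 9.69 in MG and MP of normal brain, 8.98 and 8.92 in MG and MP of tumor brain, 9.05 and 9.19 in Gr1+ and Gr1- cells of tumor brain, 9.67 and 9.03 in Gr1+ and Gr1- cells of tumor blood, 8.74 and 9.06 in tumor blood macrophage high and low, and 8.49 and 8.78 in normal blood macrophage high and low. Over 12 arrays Ndufa4 had a range of 1.20, and its highest value was on normal MP.

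The difference of tumor MG minus normal MG was 3.66 for AA467197 and -0.28 for Ndufa4. With normal MG raised to its background level, AA467197 was at least 1.79-fold higher in tumor MG. The part of the monocyte markers, of which 5 of 8 were above background on tumor MG and 0 on normal MG, was not tested. In tumor MP against normal MP the differences were 1.84 for AA467197, at least 2.19-fold, and -0.77 for Ndufa4. For Gr1+ against Gr1- cells AA467197 differed by 1.76 in tumor brain and 2.15 in tumor blood, above background on all 4 arrays, and Ndufa4 by -0.14 and 0.65. Both Gr1- arrays carried all 9 measured microglia markers above background, and their part was not tested. The differences of AA467197 stayed above 0 under all 5 scalings in these 4 comparisons.

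**Figure D5:**
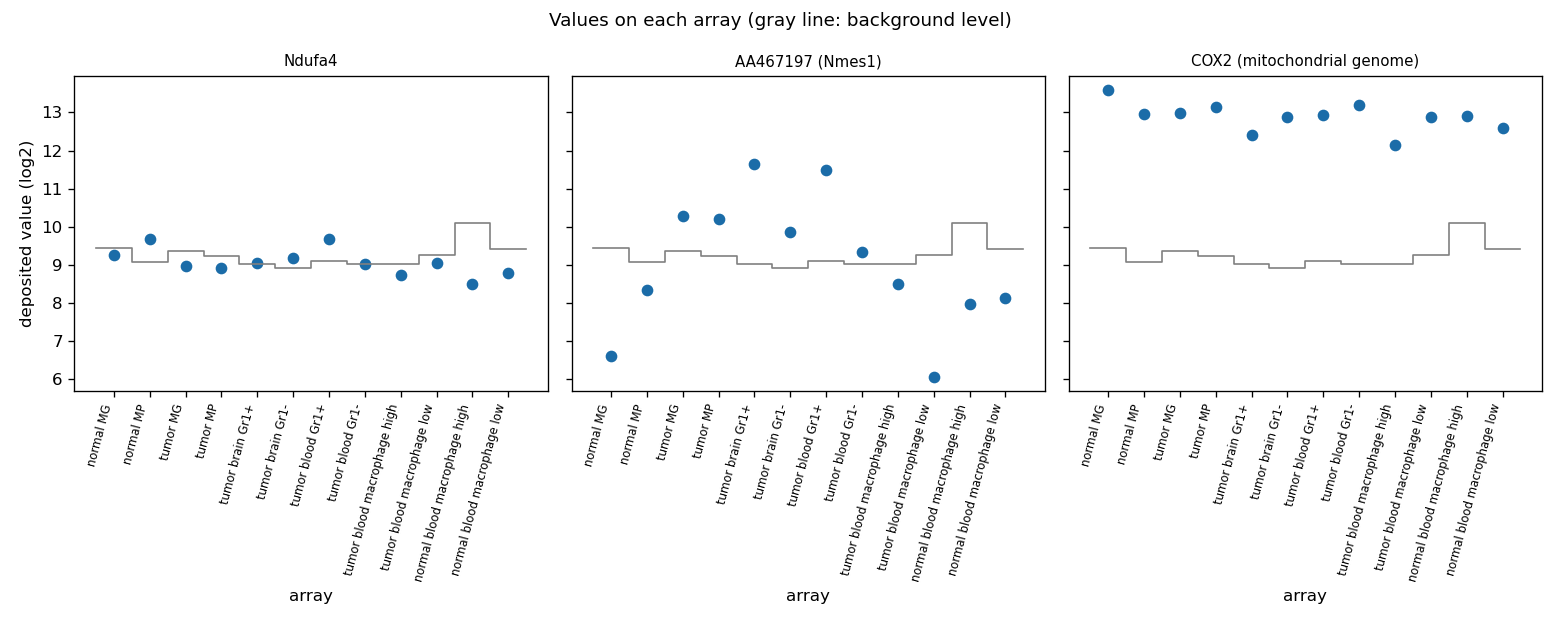
Log2 value (vertical axis) of Ndufa4, AA467197 and the mitochondrially encoded COX2 on each of 12 arrays (horizontal axis), with each array's background level as a gray line. AA467197 lies above the line on the 6 tumor arrays of MG, MP and Gr1-sorted cells. It lies below the line on the 4 normal arrays and on tumor blood macrophage high and low, while Ndufa4 is above it on 4 arrays.

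Neighbouring mitochondrial gene lists are given beside the subunits. The 77 mitochondrial ribosomal protein genes had medians of -0.10 in normal MP against normal MG and 0.03 in tumor brain Gr1+ against Gr1- cells, where the subunits had 0.33 and 0.31. The 24 import genes of the Tomm and Timm families had -0.11 and 0.15, and the 32 assembly factors outside the symbol rule had -0.27 and -0.01. Cytosolic ribosomal protein genes, 61 in all, had 0.53 and -0.04, so they moved with the subunits in the first comparison and not in the second. No test separates these lists. For the 12 enzymes of the tricarboxylic acid cycle, which feeds NADH and succinate into the chain, the medians were 0.22 and -0.03. Their medians lay near those of the subunits in tumor MP against normal MP, at -0.27 and -0.24, in tumor brain Gr1+ against tumor blood Gr1+, at 0.28 and 0.24, and in tumor against normal blood macrophage high, at 0.64 and 0.56. In tumor MG against normal MG the enzymes were at -0.32, with none 2-fold apart, and the subunits at 0.01. Suclg2, a subunit of the GTP-forming succinyl-CoA ligase, was at -1.40 in tumor brain Gr1+ against Gr1- cells and at -1.19 in tumor blood Gr1+ against Gr1- cells. It was below background in both Gr1+ populations, which leaves Gr1- cells at least 1.75-fold and 1.40-fold higher. Both Gr1- arrays carried microglia markers, and their part was not tested.

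Among 12 regulators of respiratory genes, Ppargc1a, the coactivator of mitochondrial biogenesis, was above background on none of the arrays. Tfam, Tfb1m and Tfb2m, the mitochondrial transcription factors, were also below background on all 12 arrays. Yy1 and Gabpa were above it on 11 arrays, Gabpb1 on 10, Nrf1 on 3 and the mitochondrial RNA polymerase gene Polrmt on 12. In tumor MG against normal MG the 12 had a median of -0.44, and the 3 at least 2-fold lower, Ppargc1a, Tfam and Tfb2m, were all below background on both arrays.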

How the data were processed

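RNA of sorted cells was amplified in 2 cycles and hybridised to 12 Affymetrix Mouse Gene ST arrays, 1 per condition. The authors corrected, normalized and summarized probe intensities in Expression Console, while RMA is listed with no version in the submitters' processing notes. The deposited log2 values were used as they stand, with a lowest linear signal of 1. The genome build and annotation release behind them are not given in the sources used here. Of 28944 probe sets, 21789 carry 1 symbol, and the brightest stood for each of 19938 genes. Among the 89 members, 17 have several probe sets, and the place in the genome that the brightest one reads was not checked directly. Probe set numbers broadly follow chromosome order. Those of Ndufb11, Cox7b, Ndufc1, Ndufs3, Atp5h, Atp5l, Atp5md and Atp5pb, for example, lie among numbers of genes on other chromosomes. Such probe sets may read another place in the genome than the named gene, and this was not tested.

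In 10 comparisons 1 array was subtracted from another, with 2-fold as the threshold. No p-value is possible with 1 array per condition, and the number of arrays limits precision. Where a gene was at least 2-fold apart and 1 value was not above background, the other array is given as at least N-fold higher over the background level. The members, gene lists and comparisons were chosen with earlier results of these data known. Named genes were the brightest and widest-ranging members of each complex, members 2-fold apart, isoform pairs, members below background throughout and up to 4 members of each further list, and any other gene was named after its values were seen. Values were also recomputed after centring on the median of all genes, quantile normalization, cyclic loess, centring on cytosolic ribosomal protein genes, the mean of probe sets, a floor at background, only genes above background and the 90th percentile as background. Computation used Python 3.11.15 (numpy 2.4.6, pandas 2.3.3, matplotlib 3.10.9) and R 4.3.3 (limma 3.58.1). Promoter windows are from RefSeq.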

Additional observations from a re-analysis of the deposited data

How the results depend on the processing

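Each comparison rests on 2 arrays, so its error between animals is unknown, and genes near background carry little information. In some comparisons, though not all, scaling moved the median of all genes by over 0.1 on the log2 scale. After centring on cytosolic ribosomal protein genes it went from -0.09 to -0.60 in tumor MG against normal MG. In normal MP against normal MG it went from -0.22 to -0.93. The subunits lay 0.11 and 0.55 above it before and after, since centring shifts all genes of an array alike and cannot change this gap. The gap was 0.10 and 0.49 after quantile normalization and 0.07 and 0.41 after cyclic loess. Under the alternatives, 136 counts stayed within 1.5 times the reported ones and 29 moved. A count of 0 that stayed 0 is among the 136, as in tumor MP against tumor MG under every alternative. The tally therefore says little about how stable the counts above 0 are. No paired analysis was possible because each condition has 1 array. The cause of a moved count was not tested.

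Centring on cytosolic ribosomal protein genes gave 4 subunits at least 2-fold lower in tumor MG against normal MG, 0 lower in tumor MP against normal MP, 0 higher and 4 lower in normal MP against normal MG, 29 higher and 0 lower in blood macrophage high of tumor against normal mice, and 3 higher in tumor blood macrophage high against low. It also left 2 subunits highest on normal MP and 4 on tumor blood Gr1+. Centring on all genes gave 4 lower in tumor MP against normal MP, 7 higher in normal MP against normal MG, 34 higher and 0 lower in tumor against normal blood macrophage high, and 2 higher in tumor blood macrophage high against low. Cyclic loess gave 4, 9, 28 higher and 2 for these same comparisons, and quantile normalization gave 8 higher in normal MP against normal MG and 29 higher and 0 lower in tumor against normal blood macrophage high. With values raised to background the counts were 0 lower in tumor MP against normal MP, 1 higher in normal MP against normal MG, 0 higher in tumor brain Gr1+ against blood Gr1+ and, in tumor against normal blood macrophage high, 0 higher and 32 lower. The mean of probe sets gave 0 higher in tumor brain Gr1+ against blood Gr1+, and only genes above background gave 1 lower in tumor MP against normal MP. Leaving out normal blood macrophage high, chosen after seeing the data, gave 27 subunits above background on every array. The shares of all genes past 2-fold, or highest on an array, were not computed under these alternatives. The counts are therefore not read as particular to the subunits. With values raised to background, the median of all genes in tumor against normal blood macrophage high was itself -1.07.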
